A study of Mus musculus with 16 samples.

Results

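Sprr1a, Cdsn, Sfn, Gjb5 and Dynap were followed in mouse embryonic fibroblasts (MEF), cells that form no epidermis. They are 5 of the 18193 genes for which the array carried a probe set naming that gene alone, and each had 1 such probe set, so 5 of 45101 probe sets. The genes were listed by name with earlier results of these arrays known. Their own signals in all 4 groups, and every difference between groups computed from them, are therefore given as a description without a test. All 5 passed the filter on low signals, some of them only through the group in which they were high.

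The groups were wild-type cells (CHOP+/+) and cells without CHOP (CHOP-/-), each either untreated or exposed to 1 µM of the proteasome inhibitor MG132 for 8 hours, with 4 arrays from 4 plates in each group. CHOP is the stress-induced transcription factor encoded by Ddit3, and the title of the series gives the search for CHOP-dependent genes as its aim. The treatment field of the untreated cells says none, whereas their descriptions name DMSO, the solvent, so the MG132 contrast may or may not include a solvent effect. All cells shared the same medium with fetal bovine serum. The labels name no separate embryos or isolations, so the spread between arrays is that between plates.

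The cornified envelope is the protein shell that replaces the plasma membrane of keratinocytes as they die at the skin surface. Transglutaminases cross-link its precursors, among them loricrin, involucrin and the small proline-rich (SPRR) proteins, many of which are encoded in one gene cluster, the epidermal differentiation complex. Corneodesmosomes hold the dead cells together, and gap junctions built of connexins couple the living layers beneath them. Sprr1a encodes an SPRR precursor of the envelope, which is also induced in injured tissues outside the skin. Cdsn encodes corneodesmosin, the adhesive protein of corneodesmosomes. Gjb5 encodes connexin 31.1, and Sfn encodes 14-3-3 sigma, an epithelial adaptor that binds phosphorylated proteins and is a known p53 target. Dynap stands for dynactin associated protein, a membrane protein, and is the member with the least known tie to the barrier.

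The stretch of DNA before each transcription start was read for 4 of the genes, Sprr1a, Cdsn, Sfn and Gjb5, and not for Dynap. Short motifs of factors that act in stressed cells were found for 2 of the genes, whose stretches are printed here. The sequences are those of RefSeq on GRCm38.p6, 250 bases before the start, written 5′ to 3′ on the strand of the gene. Capitals mark the AP-1 motif TGANTCA in Sprr1a and the reverse complement of TGATGNAA in Sfn, the motif bound by C/EBP and ATF partners, CHOP among the former.
Sprr1a, chr3:92485882-92486131, minus strand: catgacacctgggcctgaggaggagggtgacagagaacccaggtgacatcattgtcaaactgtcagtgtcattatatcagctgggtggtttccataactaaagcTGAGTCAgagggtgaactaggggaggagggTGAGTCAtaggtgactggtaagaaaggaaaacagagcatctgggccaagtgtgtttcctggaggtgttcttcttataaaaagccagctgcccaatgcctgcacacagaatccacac
Sfn, chr4:133602169-133602418, minus strand: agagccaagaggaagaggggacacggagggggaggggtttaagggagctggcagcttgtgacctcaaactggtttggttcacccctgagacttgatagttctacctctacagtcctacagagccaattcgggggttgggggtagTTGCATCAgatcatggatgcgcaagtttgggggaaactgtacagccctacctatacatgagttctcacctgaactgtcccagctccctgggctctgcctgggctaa
Sprr1a held 2 matches to the AP-1 motif, at 146 to 140 and at 116 to 110 bases before the start, and none to the other motifs. At least 1 AP-1 match was present in 6.75% of all 32817 promoter windows of the same length, and at least 2 in 0.338%. Sfn held 1 match to the C/EBP-ATF motif, at 106 to 99 bases before the start, which 3.45% of all windows had. The heat shock motif GAANNTTC, present in 6.69% of windows, was not found in the windows of Sprr1a, Sfn, Gjb5 or Cdsn. Gjb5, on chromosome 4, and Cdsn, with 2 windows on chromosome 17, held none of the 3 motifs. Both strands were searched. A match says only that the letters are present.

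The arrays give linear MAS5 signals with no detection calls. The median signal per array lay between 90.1 and 113 units, and a signal under the median of its array is called near background here. Across genes, the correlation between arrays within a group was 0.985 to 0.992. Most fibroblast markers were detected in every group, with 9 or 10 of 12 above the array median on all arrays of the group. Their summed signal over 12 markers ran from 108167 to 126042 in untreated and from 95439 to 102996 in treated wild-type cells, and from 106084 to 117147 and from 81644 to 84939 in knockout cells. Of these, Lum and Fap were near background in all groups, and Dcn in wild-type cells. Pdgfra was close to the array median in knockout cells, at 118 and 143. Ddit3 gave 1017 ± 101 and 7724 ± 587 in untreated and treated wild-type cells (mean ± SD, n = 4), and 368 ± 24.0 and 396 ± 38.9 in knockout cells. The signal in knockout cells was thus lower but not near background, and the labels do not say which part of the gene was deleted.

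The 2 genotypes differ in more than CHOP. Xist, the transcript that silences an X chromosome in female cells, gave 297 and 382 in untreated and treated wild-type cells, but 10336 and 9777 in knockout cells. The Y-linked Eif2s3y gave 4714 and 7092 in wild-type and 11.1 and 18.4 in knockout cells. These 2 genes were looked up after the values were seen. The cell lines are thus of different sex, and the fibroblast markers Thy1 (227 against 2727, untreated) and Pdgfra (2351 against 118) differ between them as well. Loss of CHOP and the other differences between the cell lines cannot be told apart in any comparison of genotypes below.

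The 5 genes fell into 4 patterns. Sprr1a was among the strongest signals of the knockout cells and near background in wild-type cells. Cdsn and Sfn lay higher with MG132 in wild-type cells, and not in knockout cells. Dynap lay higher with MG132 in both genotypes, by less in the knockout, whose untreated level was higher. Gjb5 was weakly detected in untreated wild-type cells and near background everywhere else.

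**Figure D1:**
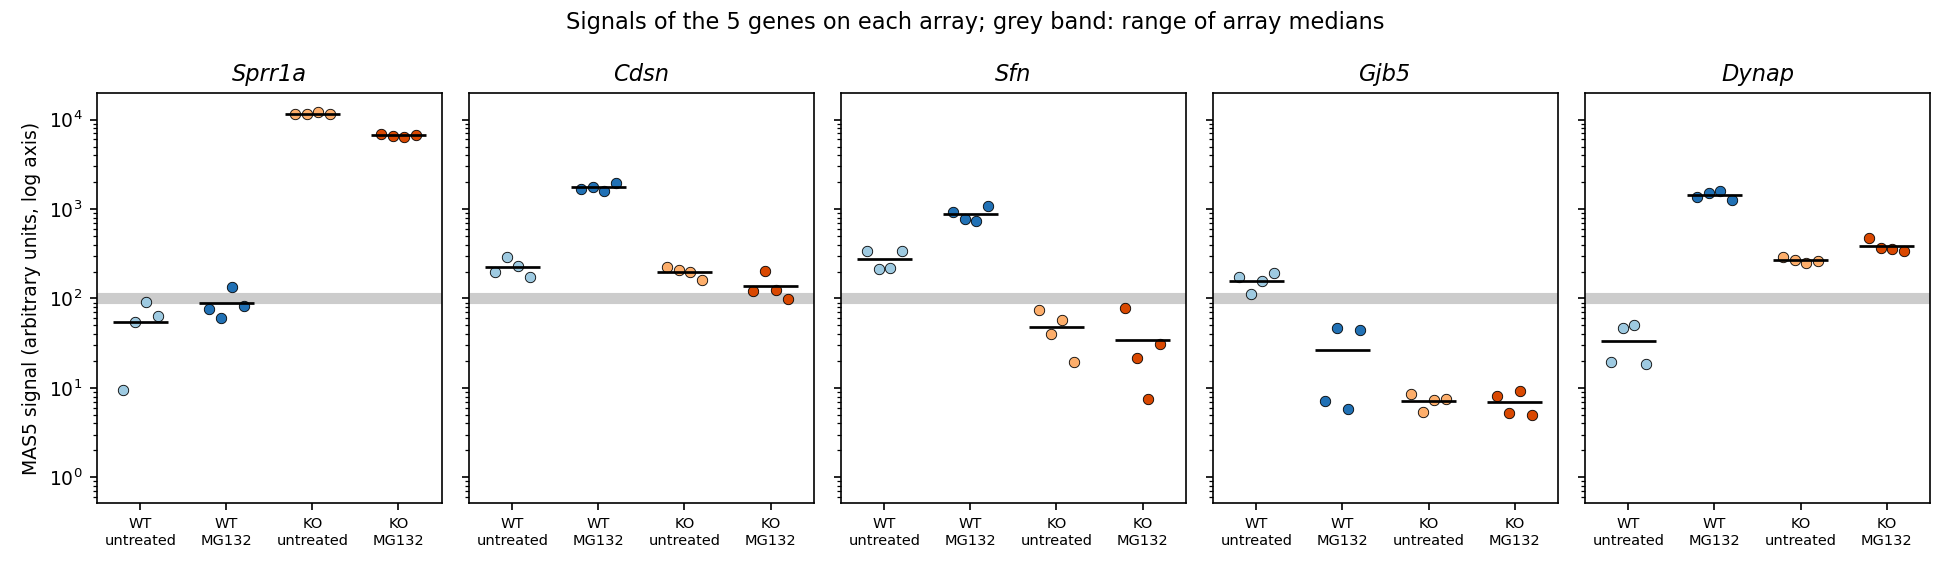
MAS5 signal of Sprr1a, Cdsn, Sfn, Gjb5 and Dynap (log axis, arbitrary units) on each of the 16 arrays, by genotype (WT, wild-type; KO, CHOP knockout) and treatment. Points are arrays, bars are means of 4 arrays and the grey band is the range of the array medians, 90.1 to 113. Sprr1a lies between 6469 and 12129 in knockout cells, and Gjb5 lies above the band in untreated wild-type cells alone, although 1 of those arrays, at 112, lies within it.

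Sprr1a encodes the envelope precursor. The 4 untreated wild-type arrays gave 9.54, 54.5, 91.4 and 63.4, and the 4 treated ones 76.0, 60.0, 135 and 81.8. These groups overlap, and 1 of the 8 arrays lay above its array median. Untreated knockout cells gave 11549.7, 11457, 12129 and 11662, above 97.0 to 97.1% of all probe sets. Treated knockout cells gave 6970.7, 6632, 6469 and 6713, above 94.1 to 94.4% of all probe sets. All 8 knockout arrays thus lay far above all 8 wild-type arrays, and the treated knockout arrays all lay below the untreated ones. The ratio of mean signals between knockout and wild-type was 214 without MG132 and 75.8 with it, but both denominators are near background, so these ratios have no firm size. On the scale of log2(signal + 16) the genotypes differed by 7.55 (SE 0.28) without MG132 and by 6.06 (SE 0.28) with it, and the former was 8.08 with a constant of 1 and 6.68 with 64 in place of 16. MG132 went with a difference of -0.80 (SE 0.28) in knockout cells, from a mean of 11699 ± 298 to 6696 ± 209, and of 0.69 (SE 0.28) in wild-type cells. The latter was 0.26 without replicate 1 of untreated wild-type cells, the lowest of those arrays. Each SE is pooled over all 4 groups. The log2 SD was 0.90 and 0.42 in untreated and treated wild-type cells, but 0.036 and 0.045 in knockout cells. The SE of 0.28 thus overstates the spread of the knockout arrays. Their difference with MG132 stayed between -0.82 and -0.79 when 1 array was left out.

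The product of Cdsn glues corneocytes to each other. Untreated wild-type arrays gave 196, 289.7, 232 and 175, and treated ones 1678, 1765, 1579 and 1949. All 4 treated arrays lay above all others, at means of 1743 ± 157 against 223 ± 50.4, a 7.81-fold ratio and a log2 difference of 2.90 (SE 0.18). Untreated knockout arrays gave 223, 208, 198 and 160.0, within the range of the untreated wild-type arrays save the lowest of them. Treated knockout arrays gave 120.0, 203, 126 and 98.5, a log2 difference of -0.51 (SE 0.18), and 1 of the 4 lay among the untreated ones. The response was thus lower in the knockout by 3.41 on the log2 scale (SE 0.25), the fifth lowest of the genes tested, and the treated genotypes differed by -3.56 (SE 0.18). Cdsn stayed above the array median on all 16 arrays, as no other of the 5 genes did.

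For Sfn, the 14-3-3 sigma gene, untreated wild-type arrays gave 344, 215, 217 and 338, and treated ones 925, 771, 743 and 1069.9. The groups do not overlap, with a 3.15-fold ratio of means and a log2 difference of 1.62 (SE 0.33). In knockout cells the untreated arrays gave 73.7, 40.5, 58.2 and 19.4 and the treated ones 78.6, 21.4, 7.61 and 31.3, all of them near background and overlapping. The log2 difference there was -0.44 (SE 0.33), and it was -0.80 without replicate 1 and -0.13 without replicate 3 of the treated knockout arrays. Sfn thus lay lower in the knockout already without MG132, at a log2 difference of -2.25 (SE 0.33), and further with it, at -4.31 (SE 0.33). The responses differed by -2.06 (SE 0.47).

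The other 14-3-3 genes are expressed in most cells. All 6 were tested, at group means of 11096 to 36041. In wild-type cells Ywhag rose with MG132 by 0.35 (SE 0.07, limma adjusted p = 9.25e-05), while Ywhah fell by 0.47 (SE 0.04, adjusted p = 3.64e-09) and Ywhaz fell by 0.26 (SE 0.05, adjusted p = 0.00033). In knockout cells Ywhag rose too, by 0.30, and Ywhah and Ywhaz fell by 0.14 and 0.18. Centring each array on the median of the genes tested raised the median of all genes by 0.20 in wild-type cells and by 0.145 in knockout cells. Under it the falls of Ywhaz in both genotypes did not pass (-0.05 and -0.03), and the difference of Ywhah in the knockout turned to 0.01. The list then had 3 genes higher and 1 lower in wild-type and 2 and 0 in knockout cells, but 1 and 5 in both under quantile normalisation. Under median centring 65% of all genes were called in wild-type and 62.5% in knockout cells, with 61.6 and 55.8% of the calls higher. Under quantile normalisation 64.1 and 61.7% were called, with 44 and 44.4% of the calls higher.

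For Gjb5, the connexin 31.1 gene, untreated wild-type arrays gave 174, 112, 155 and 191, between 50.8 and 58.7% of all probe sets lying lower, so the signal was only just above the array median. Treated wild-type arrays gave 7.21, 47.2, 5.87 and 44.75, all below the untreated ones and near background. Knockout arrays gave 8.63, 5.34, 7.29 and 7.54 without and 8.17, 5.23, 9.18 and 5.01 with MG132, among the lowest signals of the array. The log2 differences were -2.20 (SE 0.40) for MG132 in wild-type cells, -0.02 (SE 0.40) in knockout cells and -2.89 (SE 0.40) between the untreated genotypes. Their sizes rest on signals near the constant of 16 added before the logarithm, and a fall with MG132 in the knockout could not have been seen at such signals, whereas a rise could. The treated genotypes overlap, at -0.71 (SE 0.40). This SE too is pooled over all 4 groups. The log2 SD was 0.30 and 0.84 in untreated and treated wild-type cells, but 0.09 and 0.13 in knockout cells.

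Other connexins were described from a list of 19, of which 13 had a probe set of their own and 3 were tested. Gjb2, which encodes connexin 26 of epidermis and inner ear, rose with MG132 in wild-type cells from 3207 ± 252 to 13286 ± 741, which is 2.05 on the log2 scale (SE 0.07, limma adjusted p = 4.2e-15). The knockout arrays averaged 772 ± 32.5 and 727 ± 75.1, a difference of -0.09 (SE 0.07, adjusted p = 0.31). The responses of Gjb2 differed by -2.14 (SE 0.10, adjusted p = 3.03e-11), where Cdsn gave -3.41, Sfn -2.06 and Gjb5 2.18. The value of Gjb5 repeats its wild-type fall with the sign turned. Its knockout arrays averaged 7.20 and 6.90, where a fall could not have been seen. Knockout signals of Sfn were near background too, at means of 47.9 and 34.7. Gja1, the main connexin of fibroblasts, rose by 0.33 (SE 0.05, adjusted p = 1.54e-05) in wild-type cells and gave 0.09 (adjusted p = 0.14) in the knockout, which passed under median centring (0.24). Gjc1 rose in knockout cells, by 0.32 (adjusted p = 1.59e-05), and gave 0.03 in wild-type cells, which passed under median centring (0.23).

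For Dynap, untreated wild-type arrays gave 19.3, 46.5, 50.7 and 18.5, all near background, and treated ones 1379.8, 1509.7, 1606 and 1275. The treated arrays lay above all others, with a log2 difference of 4.94 (SE 0.19). Its size is not firm, since the untreated arrays are near background: it was 5.52 with a constant of 1 and 3.96 with 64 in place of 16. Untreated knockout arrays gave 291, 271, 249 and 266, above every untreated wild-type array, and treated ones 479, 369, 359.7 and 342, above every untreated knockout array. The log2 difference with MG132 was 0.49 (SE 0.19) in the knockout, and the means were 269 ± 17.1 and 387 ± 62.1. The 4 groups of Dynap did not overlap and stood in the order untreated wild-type, untreated knockout, treated knockout, treated wild-type. The genotypes thus differed by 2.59 (SE 0.19) without MG132 and by -1.86 (SE 0.19) with it, and the responses by -4.45 (SE 0.26), or -5.01 and -3.53 with those constants.

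Across the 5 genes the groups did not overlap with MG132 in wild-type cells for Cdsn, Sfn and Dynap, which lay higher, and for Gjb5, which lay lower. Of all genes tested 23.3% lay higher and 33.3% lower in this sense. In knockout cells Dynap lay higher and Sprr1a lower, where 24.1% and 34.2% of all genes did. Between untreated genotypes Sprr1a and Dynap lay higher and Sfn and Gjb5 lower in the knockout, where 25.4% and 24.3% of all genes did. Between treated genotypes Sprr1a lay higher and Cdsn, Sfn and Dynap lower, where 27.9% and 25.5% did. The members were chosen on these contrasts, so nothing is read from the counts.

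**Figure D2:**
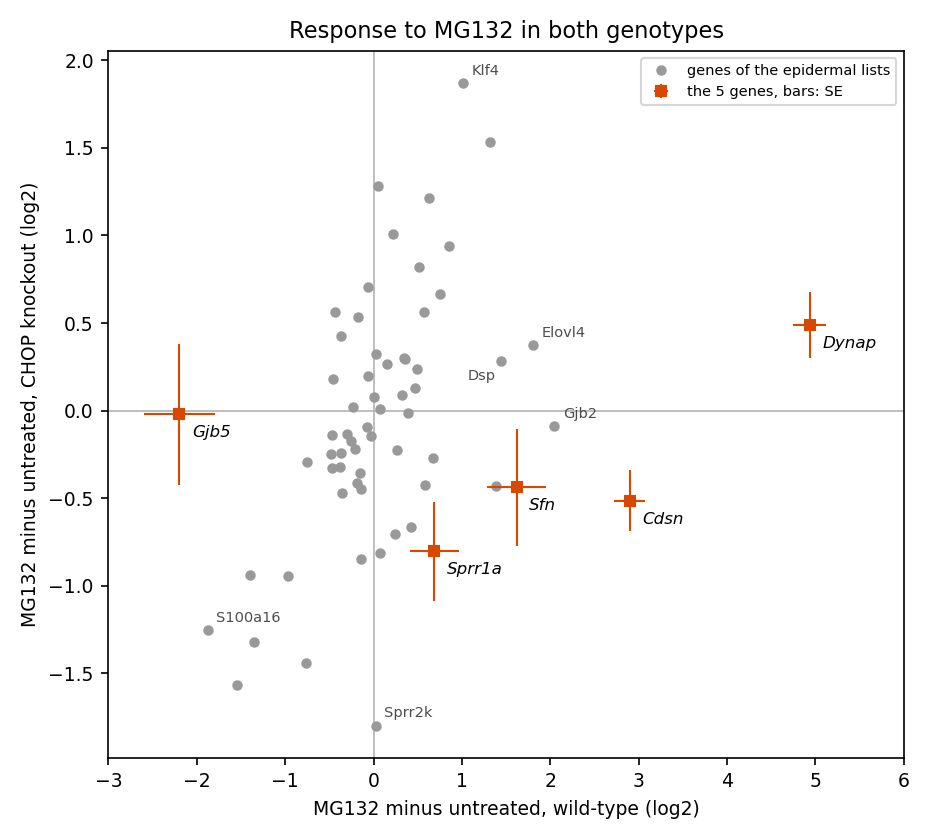
Difference between MG132 and untreated cells on the scale of log2(signal + 16), in wild-type (x) and CHOP knockout cells (y). Squares are Sprr1a, Cdsn, Sfn, Gjb5 and Dynap with their SE, and grey points are the 59 other epidermal genes tested. Dynap (4.94 and 0.49), Cdsn (2.90 and -0.51) and Sfn (1.62 and -0.44) lie to the right close to the horizontal axis, as Gjb2 does (2.05 and -0.09), and Gjb5 lies to the left (-2.20 and -0.02).

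Other genes of the epidermal barrier were taken from 7 lists of 173 genes, without the 5 described above. Of these, 143 had a probe set of their own and 59 passed the filter, so most of the barrier programme was near background in all groups. In wild-type cells 15 of the 59 rose and 14 fell with MG132 (25.4 and 23.7%, median difference 0.01), where limma called 27.2% of all genes higher and 36.9% lower (median -0.07). Of all calls in wild-type cells 42.4% were higher, but 61.6% under median centring, and the 59 genes then split into 24 and 10 with a median of 0.21. Under quantile normalisation they split into 17 and 17 with a median of -0.06. In knockout cells 13 rose and 21 fell (22 and 35.6%, median -0.09), where 25.7% and 36.8% of all genes did (median -0.07), or 17 and 13 under median centring with a median of 0.05. In either direction limma called 64.1% of all genes in wild-type and 62.5% in knockout cells. The responses differed for 20 of the 59, 8 with a higher and 12 with a lower response in the knockout (13.6 and 20.3%), where 14.2% and 14.1% of all genes did, 28.3% together. Between untreated genotypes 20 were higher and 21 lower in the knockout (33.9 and 35.6%), where 28.6% and 26.9% of all genes were, 55.6% together. Between treated genotypes 22 were higher and 21 lower (37.3 and 35.6%), where 30.7% and 28.1% were, 58.8% together.

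**Figure D3:**
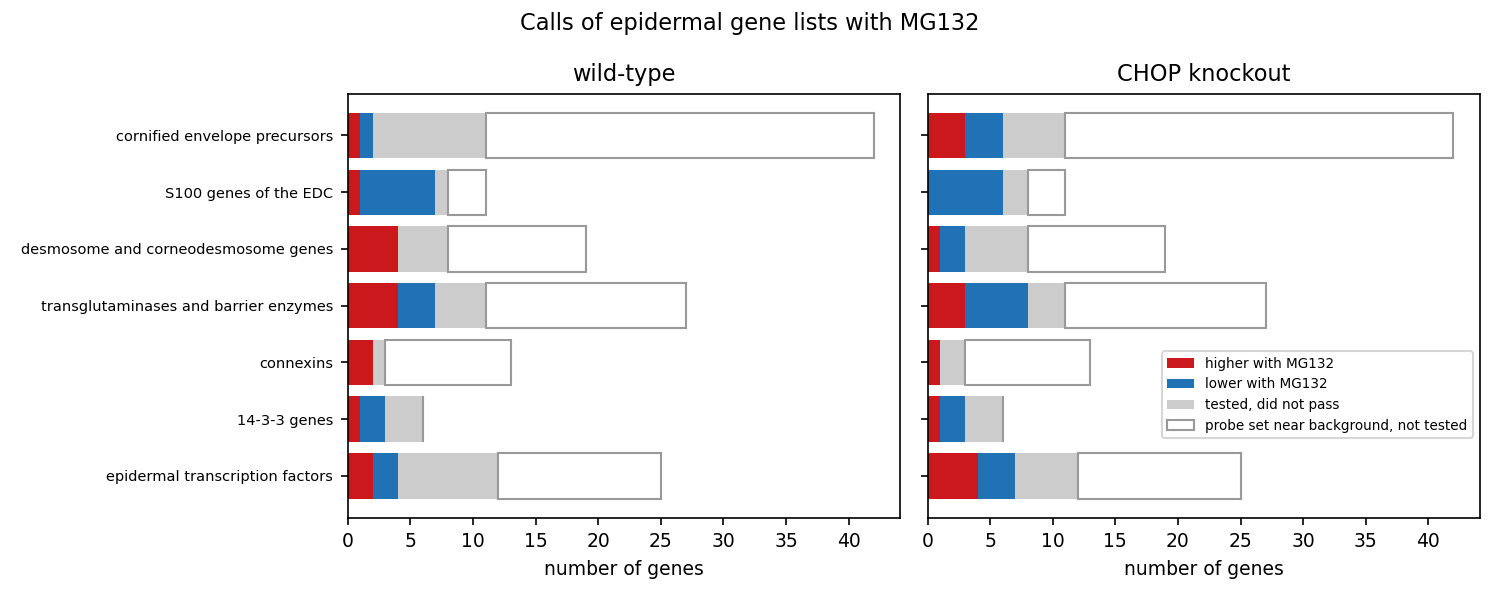
Number of genes of each epidermal list that limma called higher or lower with MG132 at an adjusted p under 0.05, in wild-type (left) and CHOP knockout cells (right). EDC is the epidermal differentiation complex. The other parts are genes that were tested and did not pass, and genes not tested. The probe sets of the latter did not pass the filter on low signals, which the key calls near background. Among cornified envelope precursors 31 of 42 with a probe set lie in the untested part, and 6 of 8 tested S100 genes are lower in both genotypes. Of all genes tested, 36.9% are lower in wild-type and 36.8% in knockout cells.

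Of 56 further envelope precursors 42 had a probe set and 11 were tested. In wild-type cells 1 rose and 1 fell, and in knockout cells 3 rose and 3 fell, or 3 and 1 under median centring and quantile normalisation. The shares over all genes tested were 27.2 and 36.9% in wild-type and 25.7 and 36.8% in knockout cells. Sbsn, which encodes suprabasin of the upper epidermis, fell in wild-type cells by 0.76 (SE 0.07, limma adjusted p = 2.19e-08) and in knockout cells by 0.29 (adjusted p = 0.0021), the latter not passing under quantile normalisation and median centring (-0.13 and -0.15), and was lower in untreated knockout cells, at 430 ± 41.4 against 3750 ± 179. Cst6, a protease inhibitor of the cornified layer, rose in wild-type cells by 0.59 (adjusted p = 0.0078) from 66.9 to 110 and fell in the knockout by 0.42 (adjusted p = 0.048), a call lost under quantile normalisation, median centring and a constant of 1 (-0.26, -0.28 and -0.44). Lor, the loricrin gene, gave 169 and 155 in wild-type cells and rose in the knockout from 141 to 236, by 0.70 (SE 0.23, adjusted p = 0.012). The late envelope gene Lce1f rose there by 1.28 (SE 0.40, adjusted p = 0.0093) from 59.9 to 169, a call lost with a constant of 1 (1.48). The difference between the responses of the genotypes did not pass for Lor (0.76, adjusted p = 0.088) or Lce1f (1.23, adjusted p = 0.12). The other defining genes were near background: Ivl, for involucrin, gave 24.5 to 45.7 as group means, Flg, for filaggrin, 5.21 to 12.2, and the transglutaminase gene Tgm1 33.8 to 61.3. Lce1h, named after its values were seen, gave 113 ± 102 and 110 ± 53.4 in wild-type and 420 ± 49.6 and 859 ± 62.3 in knockout cells. It rose in the knockout by 1.01 (SE 0.39, limma adjusted p = 0.032). Its probe set is of a type that can bind related transcripts.

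The neighbours of Sprr1a in the epidermal differentiation complex stayed low where Sprr1a gave 6469 units and more. Of the 5 genes on either side with a probe set, Sprr2k alone was tested. It gave 31.2 ± 17.5 and 32.9 ± 21.5 in wild-type cells, 237 ± 9.48 in untreated and 66.8 ± 47.0 in treated knockout cells. It was higher in untreated knockout than wild-type cells by 2.49 (SE 0.38, limma adjusted p = 1.29e-05) and fell with MG132 in the knockout by 1.80 (SE 0.38, adjusted p = 0.00037), the direction in which Sprr1a lay. Sprr2j-ps, a pseudogene not tested, gave 6.15 and 6.70 in wild-type and 78.4 and 25.7 in knockout cells. Sprr2h, farther along the cluster and named after its values were seen, gave 6.72 and 17.8 in wild-type and 159 and 98.0 in knockout cells. SPRR2 genes are close copies of each other, so a signal may belong to another member of the family, which was not tested. Sprr1b, the nearest relative of Sprr1a, gave 2.65 to 5.61 as group means.

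**Figure D4:**
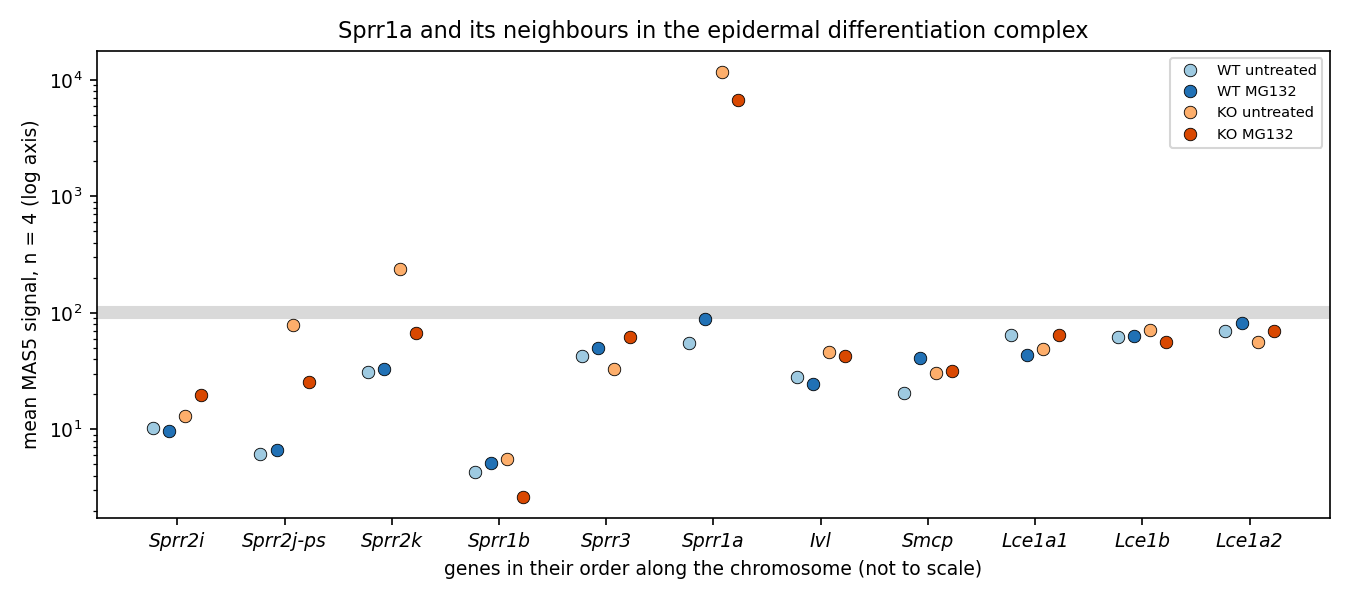
Mean MAS5 signal of 4 arrays per group (log axis) for Sprr1a and the 5 genes with a probe set on either side of it, in their order along the chromosome, with the range of array medians in grey. Sprr1a lies at 11699 and 6696 in knockout cells, and of its neighbours Sprr2k in untreated knockout cells (237) alone lies above the band.

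Of the S100 genes in the same complex, which encode calcium-binding proteins, 8 were tested. In wild-type cells 1 rose and 6 fell with MG132 (median -0.63), and in knockout cells 0 rose and 6 fell (median -0.69), or 1 and 5 and then 0 and 4 under median centring. Of all genes tested, 27.2% rose and 36.9% fell in wild-type cells (median -0.07). In knockout cells 25.7% of them rose and 36.8% fell (median -0.07). S100a16 fell by 1.88 (SE 0.09, limma adjusted p = 1.64e-13) in wild-type cells, and fell by 1.25 (SE 0.09, adjusted p = 1e-10) in knockout cells. S100a13 fell by 1.55 and 1.57, S100a1 by 1.39 and 0.94, and S100a4, a marker used for fibroblasts, by 0.77 and 1.44. S100a3, known from the hair cuticle, was the 1 that rose, by 1.38 (SE 0.21, adjusted p = 1.05e-05) in wild-type cells, and was named after its values were seen.

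Of the desmosome genes 8 were tested, and 4 rose and 0 fell in wild-type cells (median 0.27), where 27.2% of all genes rose and 36.9% fell. In knockout cells 1 rose and 2 fell (median -0.13, which was 0.02 under median centring), where 25.7% of all genes rose and 36.8% fell. Dsp, for desmoplakin, which anchors keratin to the desmosome, rose in wild-type cells by 1.44 (SE 0.24, limma adjusted p = 2.96e-05), but only from 7.95 to 46.7, below the array median, whereas the knockout gave 309.9 and 381. Pkp1, a plakophilin of the suprabasal epidermis, rose from 415 to 659 by 0.68 (SE 0.15, adjusted p = 0.00057) in wild-type cells and gave -0.27 (adjusted p = 0.13) in the knockout. The responses of Dsp and Pkp1 differed by -1.16 (adjusted p = 0.015) and -0.94 (adjusted p = 0.0023), the former not passing with a constant of 64 (-0.38). Pkp2 rose by 0.39 in wild-type cells and was higher in untreated knockout cells by 3.60 (SE 0.12), at 3674 against 293. Perp, a desmosomal p53 target, gave 1050.2 and 957 in wild-type cells and fell in the knockout by 0.45 (adjusted p = 0.0024) from 340.2 to 248. The difference between its responses, -0.31, did not pass (adjusted p = 0.18). The desmogleins and desmocollins with a probe set were near background.

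Of the transglutaminases and barrier enzymes 11 were tested, with 4 rises and 3 falls in wild-type cells and 3 rises and 5 falls in the knockout. These are 36.4 and 27.3% in wild-type cells, where 27.2% of all genes rose and 36.9% fell. In the knockout they are 27.3 and 45.5%, where 25.7% of all genes rose and 36.8% fell. Median centring gave 6 rises and 1 fall in wild-type cells. It gave 5 rises and 3 falls for the knockout, where the balance thus turned, as it did under quantile normalisation (4 and 3). Of all calls in the knockout 41.2% were higher, or 55.8% under median centring and 44.4% under quantile normalisation. Elovl4, which makes the very long fatty acids of barrier lipids, rose in wild-type cells from 66.4 to 261, by 1.80 (SE 0.17, limma adjusted p = 8.7e-09). In the knockout it gave 948 and 1232, a difference of 0.37 (adjusted p = 0.060) that passed under quantile normalisation and median centring. Abhd5, a lipase cofactor, rose in both genotypes, by 0.86 and 0.94, and Casp14, the caspase of cornification, by 0.75 and 0.66. Aloxe3, a lipoxygenase of the barrier, rose by 0.51 and 0.82. Smpd1, the acid sphingomyelinase, fell by 1.35 and 1.32. Ugcg, for glucosylceramide synthesis, gave 0.07 in wild-type cells, which passed under median centring (0.28), and fell by 0.81 (SE 0.06, adjusted p = 6.04e-10) in the knockout.

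Of 12 epidermal transcription factors tested, 2 rose and 2 fell in wild-type and 4 rose and 3 fell in knockout cells. These are 16.7 and 16.7% in wild-type cells, where 27.2% of all genes rose and 36.9% fell. In knockout cells they are 33.3 and 25%, where 25.7% of all genes rose and 36.8% fell. The wild-type counts were 6 and 2 under median centring and 4 and 2 under quantile normalisation, where 61.6 and 44% of all calls were higher. Klf4, required for the skin barrier, rose in both, by 1.01 (SE 0.06, limma adjusted p = 7.6e-12) from 4042 to 8164 and by 1.87 (SE 0.06, adjusted p = 7.36e-16) from 749 to 2779. Grhl1, of the grainyhead family, rose by 1.32 and 1.53 from signals near background, 21.9 and 40.8. Klf5 fell by 0.46 in wild-type cells and rose by 0.18 in the knockout (adjusted p = 0.0398), a rise that did not pass under quantile normalisation (0.16). Hopx fell by 0.96 and 0.94. Gata3 and Maf fell in the knockout alone of the 2 genotypes, by 0.71 and 0.85, although Gata3 rose in wild-type cells under quantile normalisation and median centring (0.29 and 0.45). Their responses differed by -0.95 (adjusted p = 0.00026) and -0.70 (adjusted p = 0.0061). Trp63, the master gene of stratified epithelium, gave 43.5 to 75.1 as group means and Grhl3 11.1 to 47.7, all near background.

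Epithelial cells were looked for with 14 markers. Their summed signal ran from 1153 to 1578 in untreated and from 1777 to 2215 in treated wild-type cells, and from 1182 to 1463 and from 1324 to 1536 in knockout cells. Krt10, at 604 to 772, and Epcam, at 147 to 185, were above the array median on all 16 arrays. Krt14 rose with MG132 in wild-type cells from 10.1 to 471, by 4.22 (SE 0.32, limma adjusted p = 5.21e-10), and in the knockout by 1.55 from 10.4 to 63.6. The Krt14 probe set is of a type that can bind related transcripts. The same holds for Epcam, and among the genes above for Casp14, Gja1, Ywhag, Dsp, Pkp2, S100a1 and others. Krt8 rose in both genotypes too, by 0.90 (adjusted p = 0.0035) from 44.7 to 99.0 and by 0.58 (adjusted p = 0.0495) from 80.8 to 129. Cdh1 gave 38.2 to 67.0 and Krt18 31.1 to 95.4, and Krt5, Krt15, Krt1, Itgb4, Cldn7, Esrp1, Rab25 and Trp63 gave group means of 10.7 to 110. In bulk RNA, fewer cells of a type and less RNA per cell cannot be told apart, and the part of any epithelial cell in the signals of the 5 genes was not tested. Macrophage markers summed to 353 to 723 and endothelial markers to 80.9 to 347 over all arrays.

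Over the 16 arrays each of the 5 genes had its own nearest patterns among the genes tested, given as a description since the 4 groups set most of each correlation. Nearest to Sprr1a were Mab21l1 (r = 0.996), Capn6, Xist, Igfbp7 and Crabp1 (r = 0.991), all of them far higher in the knockout line. Nearest to Cdsn were the collagenase gene Mmp13 (r = 0.980), Ptgr1, Twist2, Ccbe1 and Las1l. Mmp13 rose in wild-type cells by 5.74 (limma adjusted p = 6.07e-13) and gave -0.45 in the knockout (adjusted p = 0.17). Nearest to Sfn were Acbd5 (r = 0.978), Slc30a4, Cep295nl, Fgfr2 and Gjb2 (r = 0.962), and Fgfr2, the receptor of keratinocyte growth factor, rose in wild-type cells by 1.05 (adjusted p = 2.46e-08) and gave -0.06 in the knockout. Nearest to Gjb5 were Ehbp1 (r = 0.963), Shisa4, Sec23ip, Colec12 and Capn2. Nearest to Dynap were Thumpd3 (r = 0.964), Spryd7, Sec61a2, Sox4 and Agpat5, of which the transcription factor gene Sox4 rose by 1.91 in wild-type and by 0.67 in knockout cells. Among the 5 genes themselves the correlation ran from -0.87 between Sprr1a and Sfn to 0.83 between Cdsn and Sfn.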

How the data were processed

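RNA of 16 cultures was hybridised to 1 Affymetrix mouse array each, with 4 arrays in each of 4 groups. The deposited values are linear intensity (signal) values that the authors made with MAS5, per the submitters' processing notes; its version was not given in the sources used here. In each array the mean without the 2% highest and lowest values was 1000. No detection calls were used.

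From the deposited intensity values log2(signal + 16) was computed here. For each of 18193 genes the brightest probe set naming it alone was taken, by mean signal over all arrays, and 11451 genes above the array median on at least 4 arrays were tested with limma 3.58.1 in R 4.3.3 (all groups in 1 fit, trended prior, Benjamini-Hochberg threshold 0.05), after the code was tested on simulated data. Of 45101 probe sets 34945 name 1 gene, 932 several and 9160 none. The p-values measure the spread between plates. Each gene has 1 estimate of spread shared by all 4 groups, so an SE is not that of the groups compared alone. Same-numbered replicates correlated over 0.1 in 5 of 24 pairs and were not treated as paired.

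The members and lists, motifs included, were chosen with earlier results of these data known. From each list, up to 4 genes with the smallest adjusted p per MG132 contrast were named, with set defining genes and, for each member, the 5 genes of highest correlation; genes named outside this rule are marked or serve as markers. Alternatives were other constants (1 and 64), quantile normalization, median centring, other filters and probe set choices, a replicate block, leaving out each array and fits of only the groups compared. Centring on the median of all probe sets was chosen after seeing the data.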

Additional observations from a re-analysis of the deposited data

Results flagged for a closer look

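The response to MG132 differed between knockout and wild-type cells by limma's interaction term (adjusted p under 0.05) for 19 of 34 named genes, where 28.3% of all genes tested did. The difference, knockout minus wild-type on the log2 scale, was negative for Ddit3 (-2.81), the gene targeted in the knockout, for Gjb2 (-2.14), Sprr2k (-1.83), Elovl4 (-1.43), Dsp (-1.16), Cst6 (-1.01), Gata3 (-0.95), Pkp1 (-0.94), Ugcg (-0.89), Maf (-0.70), S100a4 (-0.67) and Gja1 (-0.24). It was positive for Klf4 (0.86), Klf5 (0.64), S100a16 (0.63), Sbsn (0.46), S100a1 (0.45), Ywhah (0.33) and Gjc1 (0.29). The named genes were picked partly for their response in one genotype, so the share is a description. Sprr2k was near background in wild-type cells (31.2 and 32.9), where a fall could hardly have been seen. Dsp (7.95), Cst6 (66.9) and Elovl4 (66.4) were near background in untreated wild-type cells, so the sizes of their differences are not firm. The difference of Gja1 did not pass when arrays were centred on the median of all probe sets (-0.14). In 0 of 20 groups of the 5 genes did a single array stand apart from the other arrays of its group.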

How the results depend on the processing

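No result on the 5 genes or on the counts over the 59 epidermal genes changed sign where its groups did not overlap, and 903 values under the alternatives moved by less than the spread between replicates or, for counts, less than 1.5 times, and 30 moved by more. The added constant set the size where a group was near background: with 64 the wild-type difference was 2.67 for Cdsn, 3.96 for Dynap and -1.32 for Gjb5, and with 1 it was 5.52 for Dynap and -3.06 for Gjb5. In knockout cells Sprr1a gave -0.85 under quantile normalization, -0.66 under median centring and -0.76 under centring on all probe sets, and Gjb5 gave 0.12 under median centring. Median centring gave 24 epidermal genes higher in wild-type and 13 lower in knockout cells. Without suffixed probe sets 8 were lower in wild-type cells, 14 higher in treated knockout than wild-type cells and 4 higher in the difference of responses, which was 5 with the mean of all probe sets. Of all calls in the difference of responses, 50.1% were higher, or 38.6% under median centring and 69.7% under centring on all probe sets.

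Leaving out 1 array at a time gave 14 to 17 epidermal genes higher and 14 to 15 lower in wild-type cells, 11 to 14 and 18 to 22 in knockout cells, 2.80 to 3.02 for Cdsn, 4.78 to 5.10 for Dynap, 1.51 to 1.73 for Sfn and -2.45 to -1.94 for Gjb5 in wild-type cells. With the replicate number as a block, 15 epidermal genes were higher and 14 lower in wild-type cells and Dynap gave 4.94; all 35 values kept their direction and stayed within the limits above. Gjb5 had no value with a filter on at least 8 arrays, and fits of only the groups compared gave none for the difference of responses. No detection calls limit what can be said of signals under the array median.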
